A study of Mus musculus with 12 samples.

Results

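The genes described here are 10 components of the Notch pathway, followed through the 7-day-old (P7) mouse lens: the ligands *Jag1*, *Jag2* and *Dll1*, the receptors *Notch1*, *Notch2* and *Notch3*, the nuclear effector *Rbpj*, and the target genes *Hey1*, *Hes1* and *Hes5*. They were chosen by gene symbol, and each matched 1 of the 55487 gene identifiers in the deposited table of counts. Lens RNA was sequenced in 12 libraries, 3 from each of 4 genotypes, all kept on the B6J background. Wild-type lenses were compared with *Trpm3*-I/M (I/M) lenses and with *Trpm3*-M/M (M/M) lenses, which come from mice heterozygous and homozygous for an isoleucine-to-methionine substitution introduced by CRISPR/Cas9 editing in TRPM3, a calcium-permeable cation channel. *Trpm3*-KO (KO) lenses come from mice made by homologous recombination, in which a reporter cassette interrupts *Trpm3* and fusion transcripts are still made. The methods give 4 male lenses and 4 female lenses for each library, with no number of animals, and a wild-type lens at P7 has largely lost its vessel coat, the tunica vasculosa lentis.

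Notch is a transmembrane receptor that is switched on by contact with a neighbouring cell. A Jagged or Delta-like ligand on that cell pulls on the receptor, ADAM proteases and then the γ-secretase complex cut it, and the released intracellular domain enters the nucleus. There it binds RBPJ and turns on genes for Hes and Hey transcriptional repressors. In the lens, Jagged1 on fiber cells and Notch receptors on epithelial cells are known for balancing epithelial growth against fiber differentiation. Notch signalling also acts in blood vessels, where NOTCH4 and DLL4 are typical of endothelium and NOTCH3 of the pericytes and smooth muscle around it.

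Total counts per library ran from 56162182 to 57481006 in wild-type, from 56945063 to 60992877 in KO, from 68589080 to 82090262 in I/M and from 65454183 to 73875066 in M/M lenses. The targeted gene *Trpm3* was at 270.9 ± 17.5 CPM (counts scaled by TMM and library size, mean ± SD, n = 3) in wild-type, 96.2 ± 5.06 in KO, 390.0 ± 23.6 in I/M and 479.5 ± 8.09 in M/M lenses. I/M replicate 3 departed from its description, with *Xist* at 0.0727 CPM and 4 Y-linked genes summing to 69.7 CPM. The other 11 libraries held 46.3 to 307.6 CPM of *Xist* and 21.8 to 51.0 CPM of the Y-linked genes, so members that passed the filter on low counts and the test with I/M lenses are given below with and without this library. Lens fiber markers (10 genes, led by *Bfsp1* and *Mip*) summed to between 33578 and 35931 CPM in wild-type lenses. That sum was 33165 to 34649 CPM in KO, 28362 to 30259 CPM in I/M and 17891 to 20503 CPM in M/M lenses. Lens epithelium markers (8 genes, led by *Cdh2* and *Npnt*) summed to 700.3 to 742.6 CPM in wild-type and 585.8 to 619.5 CPM in M/M lenses. The top pair rose while 5 of the 8 fell, 3 of them past 2-fold, in M/M lenses, with a median log2 fold change of -0.79 over the list. The part of this change in the fall of *Notch3* described below was not tested.

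The RBPJ protein reads the core letters TGGGAA, or TTCCCA on the opposite strand. RefSeq windows of 250 bases before the start site (GRCm38.p6) were on hand for 8 members, and not for *Hes1* and *Hey1*. The letters occurred in the windows of *Hes5* and *Rbpj*, and did not occur in those of *Jag1*, *Jag2*, *Dll1*, *Notch1*, *Notch2* and *Notch3*. Of 32851 such windows of the mouse genome, 7094 (21.6%) held a match and 910 (2.77%) held at least 2. *Hes5* carries a pair of matches, 226 and 82 bases before the start, and its window is printed in full. It lies on the plus strand at chr4:154960673-154960922, with the matching letters in capitals.
Hes5 promoter: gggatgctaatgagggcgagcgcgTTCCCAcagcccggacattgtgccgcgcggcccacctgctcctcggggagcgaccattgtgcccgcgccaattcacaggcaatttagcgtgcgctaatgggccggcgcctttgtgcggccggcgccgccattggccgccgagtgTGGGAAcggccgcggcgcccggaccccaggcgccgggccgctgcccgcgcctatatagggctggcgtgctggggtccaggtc

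*Rbpj*, which encodes the DNA-binding partner itself, has matches before its own start sites on the plus strand of chromosome 5. They are shown with 12 bases on either side, at chr5:53590185-53590214 and chr5:53590269-53590298.
Rbpj upstream site: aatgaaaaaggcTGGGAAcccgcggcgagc
Rbpj downstream site: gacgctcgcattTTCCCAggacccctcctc
A match of letters is a description of the sequence and does not show that RBPJ is bound there.

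Between genes, levels were compared per kilobase of exon. In wild-type lenses the order ran from *Jag1* at 17.0 ± 1.18 CPM per kb (SD, n = 3), through *Hey1* at 7.71 ± 0.0888, *Notch2* at 3.11 ± 0.624, *Notch3* at 2.67 ± 0.352, *Hes1* at 2.01 ± 0.137, *Notch1* at 1.33 ± 0.238, *Rbpj* at 0.953 ± 0.103, *Hes5* at 0.777 ± 0.272 and *Jag2* at 0.462 ± 0.0719 to *Dll1* at 0.0420 ± 0.0134. The libraries of *Notch2* and *Notch3* overlapped, as did those of *Rbpj* and *Hes5*, and every other pair of neighbours in this order was separate. *Jag1* was the most abundant Notch ligand transcript and *Hey1* the most abundant of the targets. *Jag1* and *Hey1* held ranks 1 and 2 in all 4 genotypes, while *Dll1* was last in each. M/M lenses differed in the middle of the order, where *Hes1* stood at rank 3 with 3.44 ± 0.453 CPM per kb, *Jag2* at rank 6 with 1.51 ± 0.130 and *Notch3* at rank 7 with 1.28 ± 0.123.

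**Figure D1:**
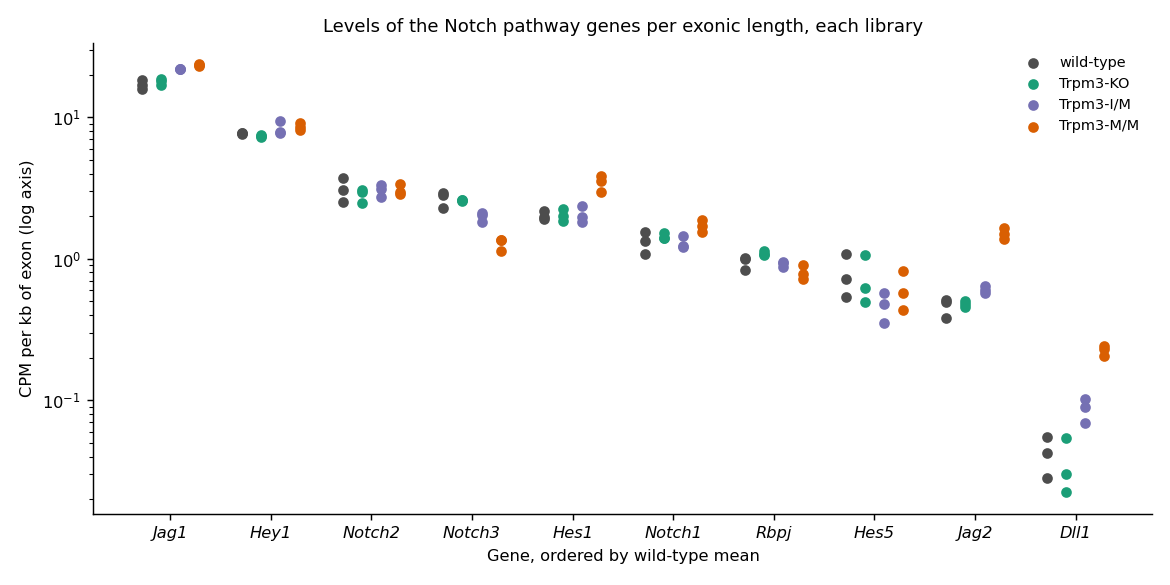
Levels of the 10 Notch pathway genes in CPM per kb of exon (vertical log axis), ordered by the wild-type mean, with 1 point per library and colours for the 4 genotypes. *Jag1* and *Hey1* lead in every genotype, and in M/M lenses *Jag2* and *Dll1* sit above, and *Notch3* below, the points of the other genotypes.

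In M/M lenses, the ligands *Jag2*, *Jag1* and the target *Hes1* were higher than in wild-type lenses, and the receptor *Notch3* was lower. *Jag2* rose 3.27-fold and *Notch3* fell 2.09-fold, and these were the members past a fold change (FC) of 2 at an adjusted p of 0.05 or less. Of the 8 members tested, 4 passed the adjusted p higher and 2 lower. Over all 8984 genes tested, 31.4% passed higher and 31.4% lower, while 6.42% were called higher and 2.53% lower at FC of 2 or more. The median log2 fold change was 0.25 over the 8 members and -0.0042 over all genes tested. Because *Jag2* and *Hes1* reached the filter (at least 5 CPM by library size, before TMM scaling, in 3 libraries) through the M/M libraries alone, these counts describe the members and carry no weight as a test of the set. Fold changes are relative to the bulk of genes. With library size as the only scaling, the median of all genes moved by 0.51 on the log2 scale in M/M, 0.20 in I/M and 0.050 in KO lenses against wild-type. On that scaling 7 members passed higher and 1 lower in M/M lenses, where 82.3% of all genes passed higher and 5.4% lower, and *Jag2* (2.23) and *Hes1* (1.29) were the members called. In RNA of whole lenses, fewer cells of a type and less RNA per cell cannot be told apart.

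**Figure D2:**
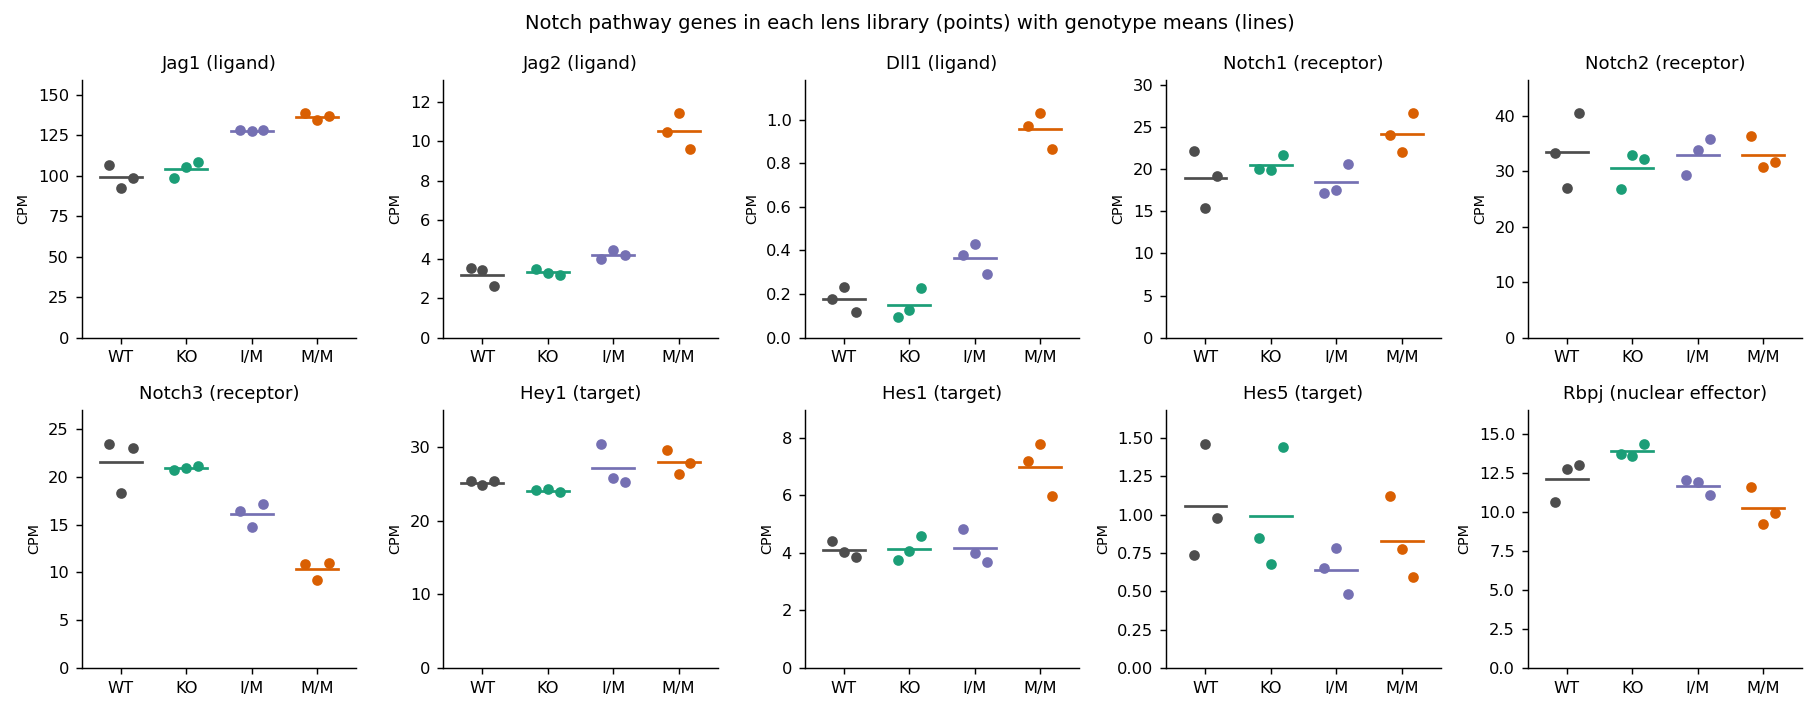
CPM (vertical axes, each from 0) of the 10 Notch pathway genes in each library, with points for the 3 libraries and a line for the mean of wild-type (WT), KO, I/M and M/M lenses. *Jag1*, *Jag2* and *Dll1* are higher and *Notch3* is lower in every I/M and M/M library than in any wild-type library, and *Hes1* is higher in every M/M library.

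*Jag2* encodes Jagged2, a ligand of the Notch receptors, and lies on the minus strand of chromosome 12 (GRCm38, 112907819 to 112929776). Its level was 3.55, 3.45 and 2.64 CPM in the wild-type libraries and 3.49, 3.32 and 3.18 CPM in the KO libraries. It was 4.00, 4.46 and 4.22 CPM in I/M and 10.5, 11.4 and 9.62 CPM in M/M libraries. All M/M libraries lay above all others, the I/M libraries lay between, and the wild-type and KO libraries overlapped. *Jag2* passed the filter through the M/M libraries alone, so its tests are a description. The log2 fold change against wild-type was 1.71 (SE 0.11) in M/M lenses, with an adjusted p of 1.55e-08 in edgeR's quasi-likelihood test. In I/M lenses it was 0.40 (SE 0.11, edgeR adjusted p 0.0158). That rise in the heterozygote did not pass in edgeR without wild-type replicate 3 (log2 fold change 0.27, adjusted p 0.0668), without I/M replicate 2 (0.35, adjusted p 0.0624) or with only these 2 genotypes in the fit (0.39, adjusted p 0.0564). Without I/M replicate 3 it was 0.40 (edgeR adjusted p 0.0375). The direct comparison of M/M with I/M lenses gave 1.31 (SE 0.10, edgeR adjusted p 2.63e-07), and 1.31 (edgeR adjusted p 3.48e-06) without I/M replicate 3.

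*Jag1* encodes Jagged1, the ligand best known in the lens, and lies on the minus strand of chromosome 2 (GRCm38, 137081456 to 137116644). It stood at 106.4, 92.7 and 98.7 CPM in wild-type, 98.7, 105.5 and 108.7 CPM in KO, 127.9, 127.5 and 128.1 CPM in I/M, and 138.4, 134.0 and 136.9 CPM in M/M libraries. Both mutant genotypes lay above all wild-type and KO libraries without overlap. The rise was 1.37-fold in M/M (log2 0.46, SE 0.05, edgeR adjusted p 5.05e-06) and 1.29-fold in I/M lenses (log2 0.36, SE 0.05, edgeR adjusted p 0.000144). Without I/M replicate 3 the heterozygote's value was 0.36 (edgeR adjusted p 0.000774). M/M and I/M lenses differed by a log2 fold change of 0.09 (95% interval -0.02 to 0.21, edgeR adjusted p 0.147), which did not pass. With library size as the only scaling, that difference was 0.41 and passed (edgeR adjusted p 0.000239).

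*Dll1*, the gene of the Delta-like 1 ligand on chromosome 17 (GRCm38, 15367354 to 15376872, minus strand), was too low for the filter in every genotype. Its level was 0.178, 0.233 and 0.120 CPM in wild-type, 0.0943, 0.128 and 0.227 CPM in KO, 0.381, 0.429 and 0.291 CPM in I/M and 0.971, 1.03 and 0.865 CPM in M/M libraries. These values rest on 6 to 11 reads per wild-type library and 76 to 94 reads per M/M library. The M/M libraries did not overlap the I/M libraries, and neither overlapped wild-type. With no filter on low counts, the log2 fold change against wild-type was 2.41 (SE 0.33, edgeR adjusted p 2.21e-12) in M/M and 1.08 (SE 0.36, edgeR adjusted p 0.0255) in I/M lenses. With a minimum of 1 CPM by library size, which *Dll1* reached through the M/M libraries alone, the adjusted p values were 4.76e-06 and 0.0220 in edgeR. Whether the counting used strand is not given in the sources used here, so reads of *Dll1* cannot be told from those of *A930024N18Rik*, which overlaps it on the other strand.

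*Notch3* was the receptor gene called at FC of 2 in M/M lenses under TMM scaling. It lies on the minus strand of chromosome 17 (GRCm38, 32120820 to 32166852). Its level was 23.5, 18.3 and 23.0 CPM in wild-type, 20.7, 21.0 and 21.1 CPM in KO, 16.5, 14.8 and 17.1 CPM in I/M and 10.9, 9.21 and 10.9 CPM in M/M libraries. The 3 genotype levels stepped down without overlap from wild-type to I/M to M/M, and KO libraries lay within the wild-type range. The log2 fold change was -1.06 (SE 0.09, edgeR adjusted p 4.30e-07) in M/M and -0.42 (SE 0.09, edgeR adjusted p 0.00329) in I/M lenses, and -0.64 (SE 0.09, edgeR adjusted p 8.75e-05) between the mutants. Without M/M replicate 2, the fall in the homozygote was -0.98 on the log2 scale (edgeR adjusted p 3.72e-06), which is under the FC of 2. Without I/M replicate 3, the fall in the heterozygote was -0.47 (edgeR adjusted p 0.00508) and the difference between the mutants -0.59 (edgeR adjusted p 0.000579). With library size as the only scaling, *Notch3* was at -0.55 in M/M (edgeR adjusted p 0.000332), short of FC of 2, and at -0.23 in I/M lenses, where it did not pass (edgeR adjusted p 0.0914). The antisense gene *Gm17276* overlaps *Notch3*, and its reads cannot be told apart here.

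*Notch1* (chromosome 2, GRCm38, 26457903 to 26516663, minus strand) was at 22.2, 15.4 and 19.2 CPM in wild-type, 20.0, 19.9 and 21.7 CPM in KO, 17.1, 17.5 and 20.6 CPM in I/M and 24.1, 22.0 and 26.6 CPM in M/M libraries. M/M libraries lay above all I/M and KO libraries but overlapped wild-type, in which the spread was wide. The rise over wild-type was 0.36 on the log2 scale (SE 0.11, edgeR adjusted p 0.0136). It did not pass without wild-type replicate 2 (0.23, edgeR adjusted p 0.0640) or without M/M replicate 3 (0.28, edgeR adjusted p 0.0670). Against I/M lenses the rise was 0.40 (SE 0.11, edgeR adjusted p 0.00865), and 0.48 (edgeR adjusted p 0.00519) without I/M replicate 3. In I/M lenses the log2 fold change against wild-type was -0.04 (95% interval -0.29 to 0.21), and it was 0.16 with library size as the only scaling. On that scaling the M/M rise over wild-type was 0.87 (edgeR adjusted p 2.42e-05), larger in size than the -0.55 of *Notch3*. A pair of other-strand genes, *0610009E02Rik* and *Gm13568*, overlaps *Notch1*.

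*Notch2* (chromosome 3, GRCm38, 98013527 to 98150361, plus strand) was the most abundant receptor transcript per kb in wild-type lenses and showed no separation of genotypes. It was at 33.2, 27.0 and 40.5 CPM in wild-type, 26.8, 33.0 and 32.2 CPM in KO, 29.3, 33.8 and 35.8 CPM in I/M and 36.3, 30.9 and 31.7 CPM in M/M libraries. Its log2 fold change against wild-type was -0.03 in M/M lenses (95% interval -0.30 to 0.25, edgeR adjusted p 0.865). With library size as the only scaling it was 0.48 (edgeR adjusted p 0.00543), close to the shift of the median gene.

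Of the target genes, *Hes1* rose in M/M lenses. It encodes a basic helix-loop-helix repressor and lies on chromosome 16 (GRCm38, 30064384 to 30067796, plus strand). It was at 4.40, 4.03 and 3.86 CPM in wild-type, 3.75, 4.07 and 4.59 CPM in KO, 4.82, 4.01 and 3.69 CPM in I/M and 7.20, 7.80 and 5.99 CPM in M/M libraries. The M/M libraries lay above all 9 others, and the other 3 genotypes overlapped. *Hes1* passed the filter through the M/M libraries alone, so its tests are a description. The change against wild-type was 1.71-fold (log2 0.77, SE 0.12, edgeR adjusted p 0.000116). Against I/M lenses it was 0.75 (SE 0.12, edgeR adjusted p 0.000193), and 0.67 (edgeR adjusted p 0.00131) without I/M replicate 3. In I/M lenses the log2 fold change against wild-type was 0.03 (95% interval -0.25 to 0.30).

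*Hey1* (chromosome 3, GRCm38, 8663359 to 8667256, minus strand), a Hes-related repressor, was at 25.4, 24.8 and 25.3 CPM in wild-type, 24.1, 24.3 and 23.9 CPM in KO, 30.5, 25.8 and 25.3 CPM in I/M and 29.6, 26.4 and 27.8 CPM in M/M libraries. All M/M libraries lay above wild-type, by a log2 fold change of 0.15 (95% interval 0.01 to 0.29, edgeR adjusted p 0.0629), which did not pass. It passed without I/M replicate 1 (0.15, edgeR adjusted p 0.0129), without M/M replicate 2 (0.19, edgeR adjusted p 0.0377) and with library size as the only scaling (0.66, edgeR adjusted p 9.99e-07).

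*Hes5* (chromosome 4, GRCm38, 154960923 to 154962371, plus strand), whose promoter is printed above, was too low for the filter. Its level was 0.734, 1.46 and 0.980 CPM in wild-type, 0.849, 0.675 and 1.44 CPM in KO, 0.653, 0.785 and 0.480 CPM in I/M and 1.12, 0.777 and 0.592 CPM in M/M libraries. All 4 genotypes overlapped. With no filter on low counts the log2 fold change against wild-type was -0.37 (SE 0.22, edgeR adjusted p 0.246) in M/M and -0.69 (SE 0.23, edgeR adjusted p 0.0223) in I/M lenses, while with a minimum of 1 CPM the latter did not pass (edgeR adjusted p 0.134). The gene *Gm20421* overlaps it on the other strand.

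*Rbpj* (chromosome 5, GRCm38, 53466152 to 53657362, plus strand) was at 10.6, 12.8 and 13.0 CPM in wild-type, 13.7, 13.6 and 14.4 CPM in KO, 12.1, 11.9 and 11.1 CPM in I/M and 11.6, 9.23 and 9.95 CPM in M/M libraries. M/M libraries overlapped wild-type and lay below all KO libraries. The log2 fold change in M/M against wild-type lenses was -0.24 (SE 0.09, edgeR adjusted p 0.0295), and its direction depended on the scaling: with library size alone it was 0.27 (edgeR adjusted p 0.00916). It also did not pass in edgeR without wild-type replicate 2 (-0.21, adjusted p 0.0981), wild-type replicate 3 (-0.19, adjusted p 0.108), M/M replicate 2 (-0.17, adjusted p 0.118) or M/M replicate 3 (-0.23, adjusted p 0.0756), or with only these 2 genotypes in the fit (-0.25, adjusted p 0.0692). Antisense genes *Gm10441* and *Gm40304* overlap *Rbpj*.

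**Figure D3:**
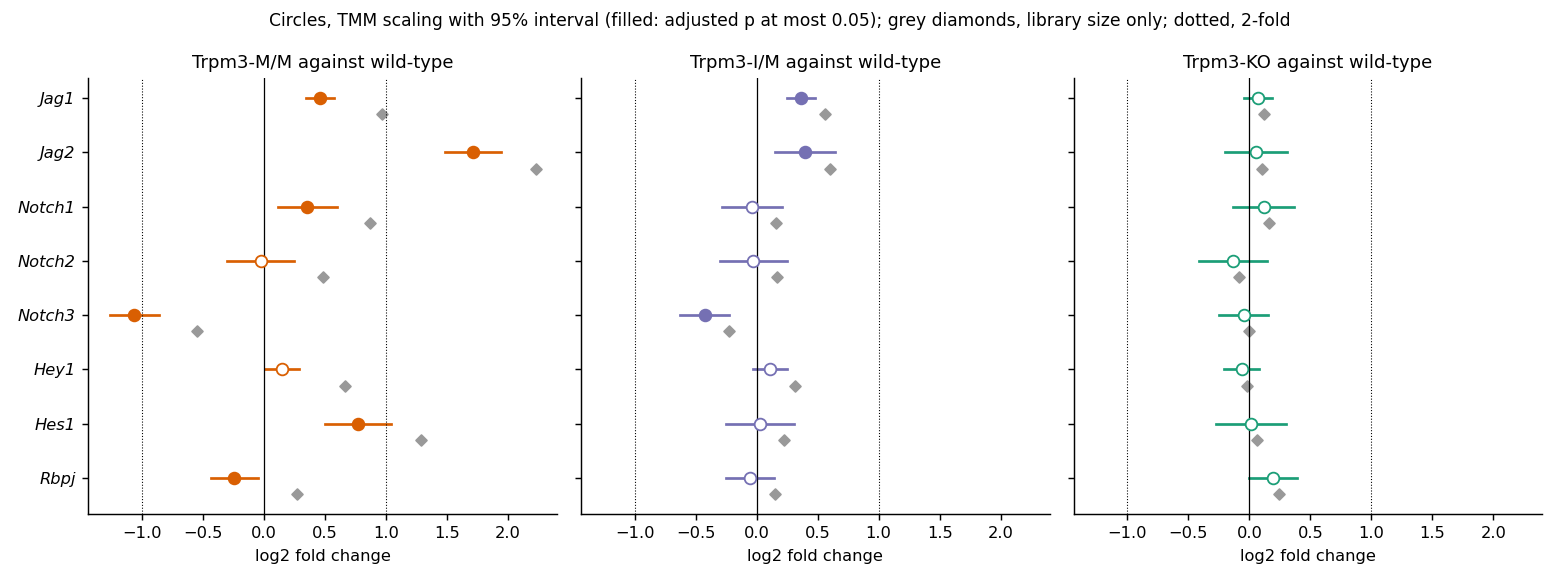
Log2 fold change against wild-type (horizontal axes) of the 8 tested Notch pathway genes in M/M, I/M and KO lenses, with circles and 95% intervals for TMM scaling (filled where the adjusted p was 0.05 or less), grey diamonds for library size only, and dotted lines at FC of 2. *Jag2* and *Notch3* lie farthest from 0 in M/M lenses, and the diamonds of *Notch2* and *Rbpj* fall on the other side of 0 from their circles there.

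In I/M lenses, *Jag1* and *Jag2* passed higher and *Notch3* passed lower than wild-type, which is 3 of the 8 members tested. The background in this comparison was 17.3% of genes higher and 15.3% lower. No member reached FC of 2, against 3.33% of genes in either direction. With library size as the only scaling 3 members passed higher and 0 lower, among 52.2% and 3.92% of all genes. The main counts were 2 higher, 1 lower and 0 at FC of 2 without I/M replicate 3 as well. In KO lenses, 0 of the 8 members passed in edgeR, none had an unadjusted p under 0.05 in edgeR, and none passed in DESeq2, where 0 had an unadjusted p under 0.05. Here 2.16% of genes passed higher, 2.2% lower and 0.568% in either direction at FC of 2. The widest 95% interval against wild-type was that of *Hes1*, -0.27 to 0.30 around a log2 fold change of 0.01. *Rbpj* libraries of KO lenses lay above all wild-type libraries (log2 0.19, 95% interval -0.0003 to 0.39, edgeR adjusted p 0.277), and those of *Hey1* below them (log2 -0.06, 95% interval -0.21 to 0.08).

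The mutant genotypes were also compared with each other and with the knockout. Between M/M and I/M lenses, *Jag2*, *Notch1* and *Hes1* passed higher and *Notch3* lower, against 25.6% of genes higher and 25.7% lower. *Jag2* was the member called at FC of 2, against 3.67% of genes higher, and these calls were the same in number without I/M replicate 3. Between M/M and KO lenses, *Jag1*, *Jag2*, *Hes1* and *Hey1* passed higher and *Notch3* and *Rbpj* lower. In that comparison 32.3% of genes passed higher and 32.4% lower, 6.85% were called higher and 2.94% lower at FC of 2 or more. The log2 fold changes were 1.66 (SE 0.11) for *Jag2*, 0.76 (SE 0.12) for *Hes1*, 0.39 (SE 0.05) for *Jag1*, 0.21 (SE 0.07) for *Hey1*, -0.44 (SE 0.09) for *Rbpj* and -1.01 (SE 0.09) for *Notch3*. *Hey1* did not pass without M/M replicate 1 (0.17, edgeR adjusted p 0.0502), *Notch3* was under FC of 2 without M/M replicate 2 (-0.94), and *Rbpj* was at 0.03 with library size as the only scaling. Over all 19 alternatives, of scaling among others, *Notch3* ran from -1.06 to -0.55 against KO and from -0.70 to -0.32 against I/M lenses. With library size as the only scaling, 5 members passed higher and 1 lower against I/M, and 6 higher and 1 lower against KO lenses. These comparisons share the M/M libraries with the comparison against wild-type. *Jag2* and *Hes1* passed the filter through those libraries alone, so here too the counts describe the members and carry no weight as a test of the set.

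A further list of 51 Notch pathway genes was described beside the members, of which 38 passed the filter. In M/M lenses 15 passed higher, 11 lower and 12 did not pass, with a median log2 fold change of 0.07, where 31.4% of all genes passed higher and 31.4% lower. By role, the 8 tested proteases and γ-secretase subunits, which cut the receptor, held 6 that passed higher and 1 lower. The 4 tested sugar transferases, which modify the receptor's extracellular domain, held 3 that passed lower. The 10 tested ubiquitin ligases and endocytosis genes split into 4 higher and 4 lower, the 6 coactivators into 1 higher and 2 lower, and the 6 corepressors into 2 higher and 1 lower. These counts are under TMM scaling. With library size as the only scaling, 82.3% of all genes passed higher and 5.4% lower, and counts of this list on that scaling are not given. In I/M lenses 6 of the 38 passed higher and 8 lower, among 17.3% and 15.3% of all genes. Without I/M replicate 3 these were 5 higher and 6 lower. In KO lenses 2 passed higher and 1 lower, among 2.16% and 2.2% of all genes.

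**Figure D4:**
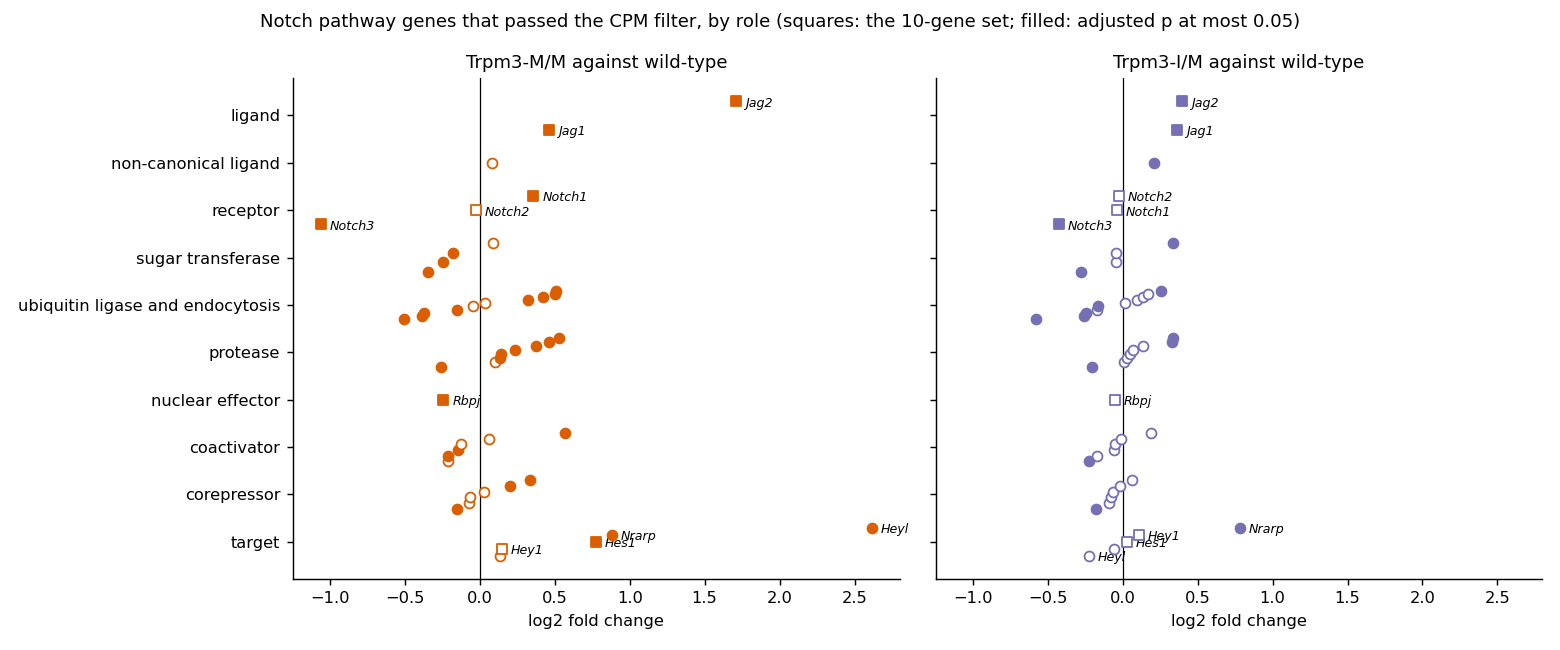
Log2 fold change against wild-type (horizontal axis) of tested Notch pathway genes in M/M and I/M lenses, arranged by role, with squares for the members, circles for the further list, and filled symbols where the adjusted p was 0.05 or less. *Heyl* at 2.62 and *Jag2* at 1.71 stand highest in M/M lenses, while in I/M lenses *Nrarp* stands highest at 0.78.

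In M/M against wild-type lenses, 6.42% of all genes were called higher and 2.53% lower at FC of 2 or more. *Heyl*, a target gene of the Hey family, was the single gene called at FC of 2 among the 38 of this list tested. It was at 1.11, 0.742 and 0.700 CPM in wild-type, 1.21, 0.912 and 1.14 CPM in KO, 0.530, 0.772 and 0.887 CPM in I/M and 5.24, 5.10 and 5.39 CPM in M/M libraries. It passed the filter through the M/M libraries alone, which lay above all others, so its tests are a description. The rise was 6.13-fold over wild-type (log2 2.62, SE 0.18, edgeR adjusted p 3.62e-08) and 7.17-fold over I/M lenses (log2 2.84, SE 0.17, edgeR adjusted p 3.61e-08), the latter being 3.00 on the log2 scale (edgeR adjusted p 2.20e-07) without I/M replicate 3. I/M lenses were at -0.23 against wild-type (SE 0.22, edgeR adjusted p 0.461). *Nrarp*, which encodes a feedback inhibitor of the Notch complex and is named here after its values were seen, rose in both mutants. It was at 2.86, 2.20 and 2.06 CPM in wild-type, 4.56, 3.32 and 4.41 CPM in I/M and 4.74, 4.22 and 4.17 CPM in M/M libraries. Like *Heyl*, it passed the filter through the M/M libraries alone, so its values are a description. The log2 fold change was 0.88 (SE 0.17, edgeR adjusted p 0.000439) in M/M and 0.78 (SE 0.17, edgeR adjusted p 0.00314) in I/M lenses. Without I/M replicate 3 the heterozygote's value was 0.73 (edgeR adjusted p 0.0128). The difference between the mutants was 0.10 (SE 0.15, edgeR adjusted p 0.616).

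Below the filter lay 13 genes of the further list. With no filter on low counts, 7 of them passed higher and 0 lower in M/M lenses, where 15.9% of genes passed higher and 13% lower. They were *Dll4*, *Notch4*, *Mfng*, *Hey2*, *Neurl1a*, *Neurl1b* and *Dlk1*, all named after their values were seen. The fit without a filter can give far smaller adjusted p values than the main fit. For *Jag2* in M/M against wild-type lenses, edgeR gave an adjusted p of 3.97e-58 there and 1.55e-08 in the main fit. The ligand gene *Dll4* was at 0.0212 to 0.0600 CPM in wild-type, 0.340 to 0.490 CPM in I/M and 0.845 to 1.02 CPM in M/M libraries. The receptor gene *Notch4* was at 0.317 to 0.500 CPM, 0.639 to 1.45 CPM and 1.88 to 2.94 CPM in the same groups. The sugar transferase gene *Mfng* was at 0 to 0.0397 CPM, 0.190 to 0.307 CPM and 1.01 to 1.18 CPM, and the target gene *Hey2* at 0.260 to 0.536 CPM, 0.640 to 0.981 CPM and 1.06 to 1.25 CPM. With no filter on low counts, the log2 fold changes in M/M lenses were 4.47 (SE 0.43) for *Dll4*, 2.61 (SE 0.22) for *Notch4*, 2.51 (SE 0.31) for *Neurl1a*, 2.02 (SE 0.44) for *Dlk1*, 1.65 (SE 0.25) for *Hey2* and 1.35 (SE 0.32) for *Neurl1b*. The wild-type level of *Dll4* rests on a few reads per library, so the size of its rise is uncertain. *Dlk1* and *Neurl1b* also missed a minimum of 1 CPM by library size, so their passes rest on the fit without a filter alone. *Neurl1a* and *Neurl1b* encode Neuralized ubiquitin ligases, and *Dlk1* a non-canonical ligand. In I/M lenses 5 of the 13 passed higher and 1 lower, against 7.75% and 5.27% of genes. Those higher were *Dll4*, *Notch4*, *Mfng*, *Hey2* and *Neurl1a*, and the 1 lower was *Aph1c* (log2 -0.95, SE 0.26). *Dlk1* was at -1.12 (SE 0.59) and did not pass. *Mfng* held at most 2 reads in any wild-type library, so no fold change is given. In KO lenses 1 of the 13 passed higher and 1 lower, against 1.84% and 1.85% of genes. *Aph1c* was higher (log2 1.47, SE 0.22) and *Aph1b* lower (log2 -1.12, SE 0.15), both genes of γ-secretase subunits and also named after their values were seen. They are close paralogs with fractional counts, so the split of reads between them is uncertain.

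Summed markers of vessel cells were also higher in M/M lenses. The sum of 10 endothelial markers, led by *Tek* and *Cdh5*, was 5.999 to 8.46 CPM in wild-type, 6.33 to 7.12 CPM in KO, 19.3 to 28.0 CPM in I/M and 60.9 to 71.7 CPM in M/M libraries. Of the 6 markers past the filter, 5 reached it through the M/M libraries alone, so no count of calls is drawn from them. *Tek*, which held most wild-type reads of the list, rose by a log2 fold change of 1.05 (SE 0.10) in M/M lenses, and *Emcn* and *Esam* held at most 3 counts in every wild-type library. The sum of 10 pericyte and smooth muscle markers, led by *Acta2* and *Pdgfrb*, was 76.2 to 92.6 CPM in wild-type, 68.2 to 74.5 CPM in KO, 101.5 to 127.8 CPM in I/M and 240.0 to 335.7 CPM in M/M libraries. Of its 5 tested genes, *Acta2* and *Pdgfrb* were past the filter in every genotype, and they rose by 1.63 and 0.50 on the log2 scale in M/M lenses, while *Higd1b* and *Kcnj8* held at most 3 counts in every wild-type library. The macrophage list (10 genes, led by *Csf1r* and *Mrc1*) was 0.460 to 0.615 CPM in wild-type and 10.8 to 21.6 CPM in M/M libraries, and had no gene past the filter. In the same groups the red blood cell list (7 genes, led by *Hba-a2* and *Hbb-bs*) was 1.23 to 12.1 CPM and 12.5 to 15.1 CPM. The Müller glia list (8 genes), led by *Dkk3* and *Vim*, which the lens itself expresses, was 2980 to 3120 CPM and 3127 to 3307 CPM. Of its 5 tested genes *Glul* (log2 1.55, SE 0.06) and *Apoe* (log2 1.91, SE 0.15) rose in M/M lenses, which is 2 called higher, against 6.42% of all genes. The others tested, *Vim*, *Dkk3* and *Aqp4*, were not called higher. *Glul*, *Vim* and *Dkk3* were past the filter in every genotype, while *Apoe* reached its level in 2 wild-type and 0 KO libraries and *Aqp4* in 0 I/M libraries. The ciliary and pigmented epithelium list (8 genes, led by *Mitf* and *Tyrp1*) was 21.1 to 23.3 CPM and 14.7 to 15.3 CPM. The part of vessel or other cells in the values of *Jag2*, *Dll1*, *Hes1*, *Heyl*, *Dll4*, *Notch4*, *Mfng*, *Hey2*, *Neurl1a*, *Neurl1b* and *Dlk1* was not tested. *Notch3* fell while the pericyte and smooth muscle sum, led by *Acta2*, was higher. The part of these cells in the fall of *Notch3* was not tested either.

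**Figure D5:**
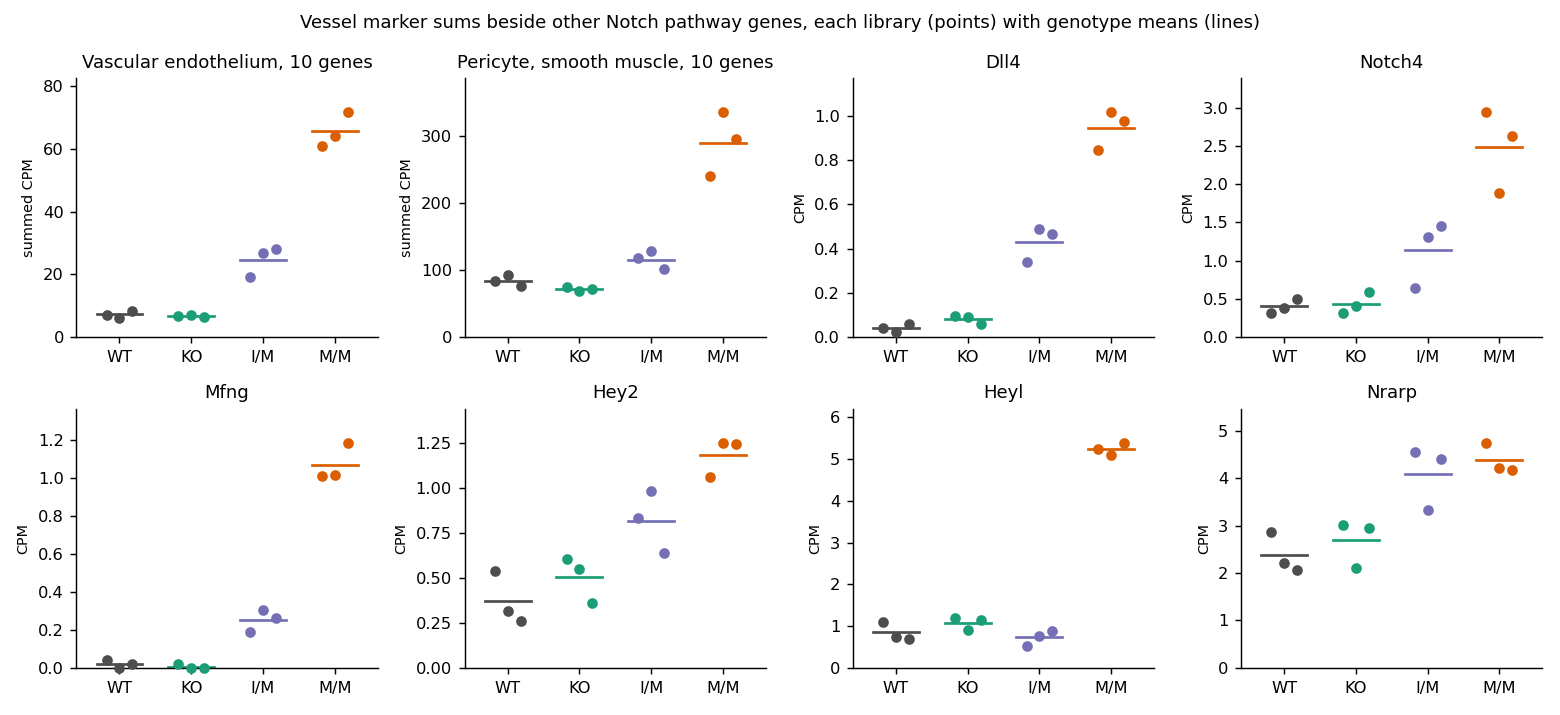
Summed CPM of 10 endothelial and 10 pericyte and smooth muscle markers, and CPM of *Dll4*, *Notch4*, *Mfng*, *Hey2*, *Heyl* and *Nrarp* (vertical axes, each from 0), with points for the 3 libraries and a line for the mean of wild-type (WT), KO, I/M and M/M lenses. *Heyl* is low in I/M lenses at 0.530 to 0.887 CPM, whereas the endothelial sum and *Dll4* lie between their wild-type and M/M ranges there.

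The genes whose pattern over the 12 libraries was most like that of *Jag2* were *Clic4*, *Slc6a6* and *Kalrn*, with a root mean square difference of 0.164, 0.166 and 0.166 in log2 CPM centred on wild-type, among 8983 genes compared. For *Notch3* they were *Daam2* at 0.0983, *Rab11fip1* at 0.107 and *Efr3b* at 0.116. Their log2 fold changes in M/M lenses were 1.67, 1.57 and 1.59 for the first set and -1.05, -1.06 and -1.09 for the second. Because these genes were picked for closeness over the same libraries, the likeness of these values follows from the choice.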

How the data were processed

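RNA from P7 mouse lenses was sequenced in 12 poly-A-selected libraries, 3 per genotype, grouped by the sample labels. The authors aligned and counted reads with DRAGEN against Ensembl release 101 (mm10, GRCm38) and deposited estimated counts per gene without normalization or pooling, 88.4% of them whole numbers. The 55774 rows of the table hold 55487 identifiers. The tests were planned for counts, so the estimated counts were rounded. Those of *Notch1*, *Notch2*, *Notch3*, *Hes5* and *Rbpj* included fractions. A second deposited table, with the authors' comparisons, was not used.

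The filter kept 8984 genes that reached 5 CPM by library size in 3 or more libraries, and these entered 1 quasi-likelihood fit with genotype as the factor and TMM scaling (edgeR 4.0.16, R 4.3.3). P-values were adjusted by Benjamini-Hochberg over all genes tested in each of 5 comparisons. A gene passed at an adjusted p of 0.05 or less and was called with FC of 2 or more besides. The 95% intervals of log2 fold changes are not adjusted for the number of genes. In data simulated for *Trpm3*-M/M against wild-type over 8984 genes, 100% of 67 genes changed 2-fold, 98.5% of 67 changed 3-fold and 100% of 66 changed 4-fold were recovered. Recovered means an adjusted p of 0.05 or less in the right direction. The simulation gave every gene the same dispersion and held no shift of the bulk of genes between genotypes. No change under 2-fold was simulated, so recovery of smaller changes, as in most members, is not known. Nothing states that replicates came from separate litters, so p-values measure the spread between these libraries.

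Coordinates and exon lengths came from GENCODE vM21 by gene identifier, and promoter windows from RefSeq. Nearest patterns used log2 CPM with a prior count of 2. Alternatives were library size only, TMM and library sizes without crystallin genes (17 removed), DESeq2 1.42.0, no filter, a CPM of at least 1, a block for replicate number, a fit of the 2 genotypes alone, no FC threshold, and each library left out.

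The members and lists were chosen with earlier results of these data known. Named by rule were all 10 members, further pathway genes called in a comparison, the 3 nearest patterns of each member called against wild-type, and the 2 highest markers per list. The other marker genes, such as *Emcn*, *Esam*, *Higd1b*, *Kcnj8*, *Glul*, *Apoe* and *Aqp4*, were named outside this rule, with their values known. The result of 1 marker list is not reported here.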

Additional observations from a re-analysis of the deposited data

Results flagged for a closer look

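Several members differed between genotypes whose effects against wild-type are compared, by a direct test in edgeR's fit. *Trpm3*-M/M and *Trpm3*-I/M lenses differed in *Jag2* (log2 fold change 1.31, adjusted p 2.63e-07), *Notch1* (0.40, adjusted p 0.00865), *Notch3* (-0.64, adjusted p 8.75e-05) and *Hes1* (0.75, adjusted p 0.000193) in edgeR. *Trpm3*-M/M and *Trpm3*-KO lenses differed in *Jag1* (0.39, adjusted p 2.30e-05), *Jag2* (1.66, adjusted p 1.63e-08), *Notch3* (-1.01, adjusted p 6.20e-07), *Hey1* (0.21, adjusted p 0.0114), *Hes1* (0.76, adjusted p 0.000119) and *Rbpj* (-0.44, adjusted p 0.000679) in edgeR. The *Rbpj* difference was 0.03 with library size as the only scaling. In each difference except that of *Rbpj*, the direction held in all 19 alternatives. *Jag2* and *Hes1* passed the filter through the *Trpm3*-M/M libraries alone, so their differences are a description.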

How the results depend on the processing

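The number of members called against wild-type in *Trpm3*-M/M lenses was 2, and 6 with no FC threshold, and 3 (with *Dll1*) with no filter or a CPM of at least 1. Leaving out each library gave 1 to 2, with 1 reached without *Trpm3*-M/M replicate 2. In *Trpm3*-I/M lenses it was 0, and 3 with no FC threshold, and 1 (*Dll1*) with no filter or with a CPM of at least 1. Between the mutants it was 1, and 4 with no FC threshold, and 2 with library size only, with no filter or with a CPM of at least 1. Between *Trpm3*-M/M and *Trpm3*-KO lenses it was 2, 6 with no FC threshold and 3 (with *Dll1*) with no filter or a CPM of at least 1, and leaving out each library gave 1 to 2.

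Library size only turned the direction of *Notch1* in *Trpm3*-I/M (0.16), *Notch2* in *Trpm3*-M/M (0.48), *Trpm3*-I/M (0.17) and between the mutants (0.31), and *Rbpj* in *Trpm3*-M/M (0.27), *Trpm3*-I/M (0.15), between the mutants (0.12) and against *Trpm3*-KO (0.026). *Notch2* between the mutants, at -0.00045, was 0.00053 without crystallins, 0.0030 in DESeq2 and 0.0047 with the replicate block.

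Leaving out each library turned the direction of values near 0, over these ranges. In *Trpm3*-KO lenses they were -0.073 to 0.13 for *Jag2*, -0.0071 to 0.25 for *Notch1*, -0.26 to 0.025 for *Notch2*, -0.15 to 0.017 for *Notch3* and -0.068 to 0.078 for *Hes1*. In *Trpm3*-I/M lenses they were -0.17 to 0.086 for *Notch1*, -0.16 to 0.13 for *Notch2*, -0.091 to 0.10 for *Hes1* and -0.38 to 0.012 for *Heyl*. In *Trpm3*-M/M against wild-type they were -0.16 to 0.13 for *Notch2*, and between the mutants -0.077 to 0.061 for *Notch2*, -0.010 to 0.13 for *Hey1* and -0.033 to 0.18 for *Nrarp*. The cause of these turns was not tested. Over all single-gene values, leaving out each library made 7 pass and 9 no longer pass, library size only made 8 pass and 2 no longer pass, and the fit of the 2 genotypes alone made 1 pass and 2 no longer pass.

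Replicate numbers gave no sign of pairing between libraries. Same-number correlations of deviations ran from -0.264 to 0.149 over 18 pairs, and those of different numbers from -0.251 to 0.297 over 36 pairs. Of 12 libraries, 2 correlated best with their own number. With 3 libraries per genotype, these values cannot exclude a shared litter or day. With the replicate block, counts of called members were 2, 0, 0, 1 and 2, *Hey1* in *Trpm3*-M/M lenses (adjusted p 0.0436) and *Notch1* against *Trpm3*-KO (adjusted p 0.0378) passed in edgeR, and no call was lost. Depth limits *Dll1* and *Hes5*, which rest on few reads.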
